A study of Mus musculus with 2 samples.

Results

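Integrins are the receptors through which a cell holds on to its neighbours and to the matrix around it. Each is a pair of an alpha chain and a beta chain, and the beta chain's cytoplasmic tail binds talin and kindlin, which switch the receptor on from inside the cell. In microglia, the resident macrophages of the central nervous system, they are best known for complement-driven uptake (CD11b with the β2 chain, also called complement receptor 3) and for the αv integrins, which bind bridging proteins on dying cells and the latent form of TGF-β. The genes described here are Itgam, Itgal and Itgb2 of the leukocyte β2 family, Itgav, Itgb3 and Itgb5 of the αv family, and Itgb1 with the alpha chains Itga4, Itga6 and Itga9. They were taken by symbol, as 10 of the 27 integrin chain genes listed for this report and of 32285 genes counted. Itgb3, the β3 chain, is in the list because the study named it from ribosome-bound RNA, a measurement that the values below do not contain: they are counts of mRNA in single cells.

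The cells were microglia sorted from the lumbar spinal cord as CD45lo CD11Bhi CX3CR1hi, and 1 droplet library (10x Chromium, 3′ ends) was made for each of 2 genotypes. Control mice carried the floxed allele of Eif4ebp1, the gene of the translation repressor 4E-BP1, without Cre (Eif4ebp1fl/fl, labelled WT). The 4E-BP1-cKO mice carried it with TMEM119CreERT2, a tamoxifen-inducible Cre driven by a microglial promoter. Both groups are listed as given 4-hydroxytamoxifen, with which the study induced Cre, from postnatal day 4 to 9. The study's mice were 8 to 10 weeks old, and how many mice each library came from is not stated. With 1 library per genotype there is no test of genotype: every interval below is a 95% interval that covers counting error only, and mouse, sort and library cannot be told apart from genotype. Because CD11b, the product of Itgam, was one of the sorting antigens, the gate itself bears on the level of Itgam.

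After removal of barcodes with 300 or fewer detected genes or with 5% or more mitochondrial UMIs (unique molecular identifiers, 1 per captured mRNA), the control library kept 1147 cells of 1216 barcodes (4803562 UMIs) and the 4E-BP1-cKO library 445 of 474 (1734332 UMIs). No barcode occurred in both libraries. The median cell held 3053 UMIs in the control and 2776 in the 4E-BP1-cKO library, and the median share of ribosomal protein mRNA was 2.27% and 3.55%. All 12 microglial markers were detected in both libraries, with a summed level of 11374 and 11132 CPM, and 95.8% and 94.2% of cells carried at least 3 of them. Among them Tmem119 was lower in the 4E-BP1-cKO library, at 142 against 433 CPM, in 33.9% against 59.4% of cells. Its promoter drives the Cre, which only the 4E-BP1-cKO mice carried, and the part of the Cre allele was not tested. At least 3 markers of T cells, which are rich in Itgal, were found in 0 and 1 cell. At least 3 oligodendrocyte markers were found in 12 and 1 cells, 3 endothelial markers in 4 and 0 and 3 markers of border-associated macrophages in 2 and 1. The summed level of 10 early activation genes was 15245 and 19041 CPM (UMIs per 1000000 UMIs of the library). Of these genes Hspa1a (1110 and 717 CPM) and Dusp1 (599 and 571 CPM) were lower in the 4E-BP1-cKO library, and the others were higher. The part of this sum and of the ribosomal share in the ratios below was not tested beyond the groupings given. The deleted segment of Eif4ebp1 lies away from its 3′ end, so its counts do not check the deletion. They were 95 UMIs (19.8 CPM) in the control and 51 UMIs (29.4 CPM) in the 4E-BP1-cKO library.

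Integrin mRNA was found in almost every cell. The 27 genes together took 12928 UMIs in the control and 4518 in the 4E-BP1-cKO library, or 2691 (2645 to 2738) and 2605 (2530 to 2682) CPM, a ratio of 0.968 (0.935 to 1.0). At least 1 integrin UMI was present in 96.4% and 95.5% of cells, with a median of 8 and 6 UMIs from 4 integrin genes per cell in each library. The 10 genes held 94.8% and 93.7% of these UMIs. CPM were compared between genes without division by length, because a 3′ library is meant to count each captured mRNA once. Whether intronic reads were counted is not given, so a part of gene length in the levels of different genes was not tested.

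In both libraries the order of levels began with Itgb5, which encodes the β5 chain, and ended with Itgal. Itgb5 stood at 685 CPM (662 to 709) in the control library, above Itgam at 495 (475 to 515) and Itgav at 494 (474 to 514), which could not be told apart there. Itga6 followed at 329 CPM (313 to 346), then Itgb1 at 193 (181 to 206) and Itga9 at 184 (172 to 197), whose intervals overlapped, and Itgb2 at 127 (117 to 137). Itgb3 was much lower, at 36.8 CPM (31.6 to 42.7). Itga4 stood at 8.33 CPM (5.95 to 11.3), and Itgal, with 3 UMIs, at 0.625 CPM (0.129 to 1.83).

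**Figure D1:**
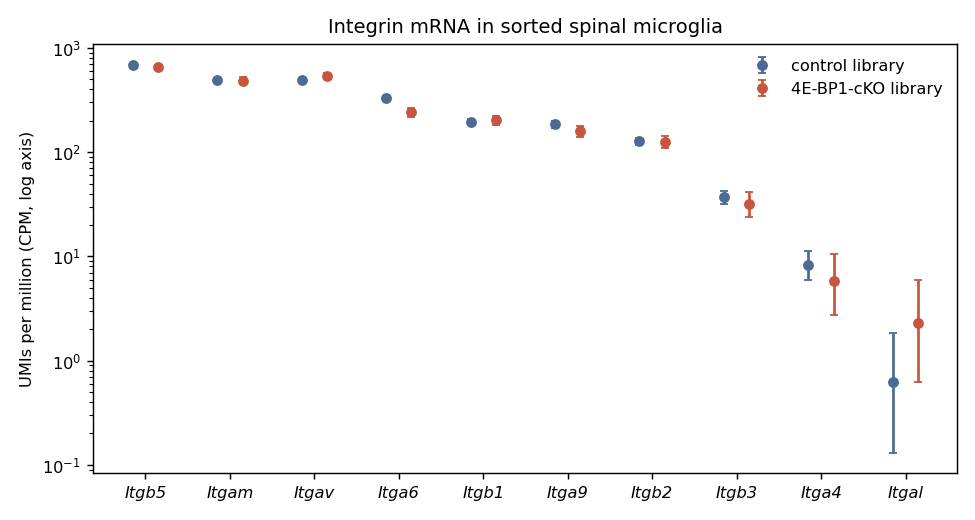
Level of each of the 10 integrin genes in the control (blue) and 4E-BP1-cKO (red) library, in CPM on a log axis. Points are the summed level over all kept cells and bars the 95% Poisson interval, which covers counting error only; the levels span from 685 CPM for Itgb5 to 0.625 CPM for Itgal in the control library.

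Between the genotypes, none of the 9 genes with at least 50 UMIs differed by more than 1.5-fold in either direction. Among all 9368 genes with that many UMIs, 3.0% were higher and 7.72% lower in the 4E-BP1-cKO library by more than 1.5-fold (10.7% either way). The count was 3 lower (Itgb3, Itga6 and Itga4) in cells thinned to one depth by a random draw, 1 lower (Itga6) with expected counts after thinning or the mean of per-cell CPM, and 1 lower (Itga4) without the cell with most UMIs of the gene. The median log2 ratio (4E-BP1-cKO over control, on CPM plus 1) was -0.07 over these 9 genes and -0.04 over all genes. For 3 of the 9 the counting interval of the ratio left out 1: Itga6 and Itga9 were lower and Itgav was higher in the 4E-BP1-cKO library. By the same measure 14.3% of all 9368 genes were lower and 9.36% higher.

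**Figure D2:**
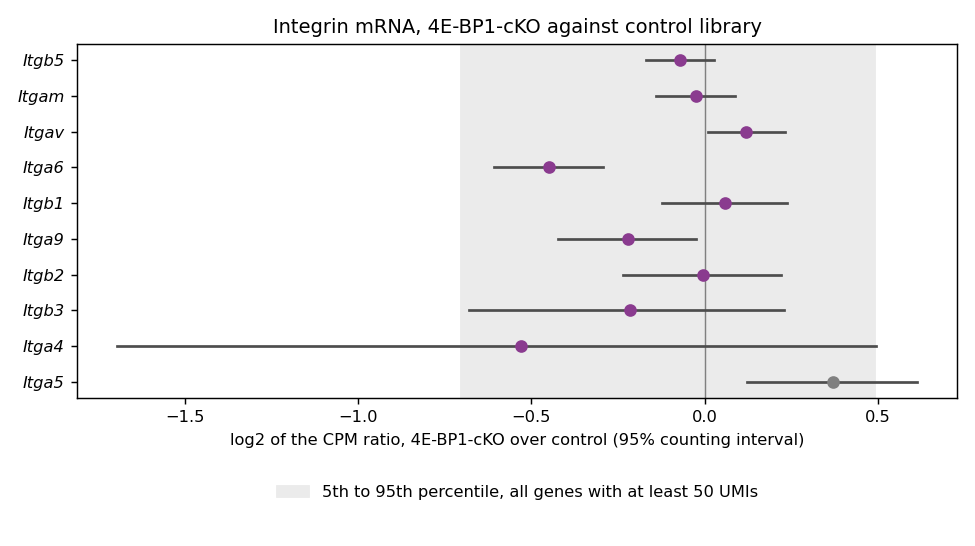
Log2 of the CPM ratio of the 4E-BP1-cKO over the control library for the 9 integrin genes with at least 50 UMIs (purple) and for Itga5 (grey), with 95% counting intervals. The shaded band spans the 5th to 95th percentile of all genes with at least 50 UMIs, -0.70 to 0.49; all 10 points lie inside it, and the interval of Itga6, at 0.73-fold, lies furthest from 0.

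Of the β2 family, Itgam and Itgb2 each stood at near-equal levels in the control and the 4E-BP1-cKO library. Itgam had 2377 UMIs in the control and 843 in the 4E-BP1-cKO library, which is 495 and 486 CPM and a ratio of 0.98 (0.91 to 1.06). It was detected in 66.4% and 65.6% of cells, with at most 21 and 16 UMIs in a single cell. Itgb2, the β2 chain that CD11b needs to reach the cell surface, stood at 127 and 126 CPM (609 and 219 UMIs), a ratio of 0.996 (0.85 to 1.16). For each chain of complement receptor 3, the level in the control library thus lay within counting error of that in the 4E-BP1-cKO library.

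Itgal encodes CD11a, the alpha chain of LFA-1, which lymphocytes use to bind ICAM-1. It was seen in 3 control cells and 4 4E-BP1-cKO cells, with 1 UMI in each, and 1 of the 4 carried at least 3 T cell markers. Of the 7 UMIs, 3 lay in the smallest cell cluster, number 9 of those described below, which also had the highest summed level of T cell markers (77.1 CPM). These few counts give a ratio of 3.69 with an interval from 0.62 to 25.2. The other β2 partners were also sparse. Itgad (CD11d) was at 13.3 and 7.5 CPM (64 and 13 UMIs; ratio 0.56, 0.28 to 1.03), and Itgax (CD11c), which is known to rise in microglia around damage and in development, at 5.0 and 9.23 CPM (24 and 16 UMIs; ratio 1.85, 0.92 to 3.62). Both intervals include 1. At this depth Itgax was found in 1.83% of control and 2.92% of 4E-BP1-cKO cells.

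Of the αv family, Itgb3 is the chain that joins αv in the vitronectin receptor and αIIb on platelets. It had 177 control and 55 4E-BP1-cKO UMIs, which is 36.8 CPM (31.6 to 42.7) and 31.7 CPM (23.9 to 41.3). The ratio was 0.86 (0.62 to 1.17), so no difference lay within counting error, as did any other ratio in that range. Itgb3 was found in 135 of 1147 control cells (11.8%) and 45 of 445 4E-BP1-cKO cells (10.1%). Most of these carried a single UMI, with 2 or more in 25 and 7 cells. After each cell was thinned to 872 UMIs, leaving out 89 and 70 shallower cells, the share was 3.21% (2.24 to 4.46) of 1058 cells and 1.87% (0.75 to 3.81) of 375 cells. The β3 chain's platelet partner Itga2b had 11 and 3 UMIs, and no cell in either library carried 3 platelet markers. Its other alpha partner, Itgav, was over 10-fold more abundant in each library.

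Itgav, the αv chain, had 2372 and 931 UMIs, at 494 and 537 CPM (ratio 1.09, 1.01 to 1.17). This small excess turned under 4 other ways of counting, with log2 ratios of -0.08 for the mean of per-cell CPM, -0.03 for the mean over clusters, and -0.05 and -0.04 in cells thinned to one depth by a random draw and by expected counts. All but the mean over clusters give each cell they use equal weight, so they are not separate checks. The share of cells with an Itgav UMI was 57.0% in the control and 54.2% in the 4E-BP1-cKO library. Itgb5, the other main αv partner here, stood at 685 and 652 CPM (3290 and 1131 UMIs; ratio 0.95, 0.89 to 1.02) and was found in 76.0% and 75.1% of cells. Set against the β3 chain, β5 mRNA took 25.4% and 25.0% of all integrin UMIs and β3 mRNA 1.37% (1.18 to 1.58) and 1.22% (0.92 to 1.58). Of the remaining αv partners, Itgb6 had 11 control and 0 4E-BP1-cKO UMIs and Itgb8 had 6 and 1, and 10 of the 11 Itgb6 UMIs came from 1 cell.

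Of the 10 genes, Itga6 had the counting interval furthest from a ratio of 1. It encodes the α6 chain, a laminin receptor when paired with β1. Its level was 329 CPM (313 to 346) in the control and 241 CPM (219 to 265) in the 4E-BP1-cKO library, from 1580 and 418 UMIs, a ratio of 0.73 (0.66 to 0.82) and a log2 ratio of -0.45. An Itga6 UMI was present in 53.3% of control and 42.9% of 4E-BP1-cKO cells, and in 23.3% (20.7 to 25.9) and 15.7% (12.2 to 19.8) of cells after thinning to 872 UMIs. The summed level of 6 endothelial markers was also lower in the 4E-BP1-cKO library, at 39.8 against 89.1 CPM, and without all cells that carried at least 3 markers of another cell type the log2 ratio of Itga6 was -0.43. One control cell held 54 of the UMIs, and without the top cell of each library the log2 ratio was -0.42. As part of the integrin pool, Itga6 took 12.2% (11.7 to 12.8) in the control and 9.25% (8.42 to 10.1) in the 4E-BP1-cKO library. In the mean of per-cell CPM, the log2 ratio was -0.62, past 1.5-fold.

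Itgb1, the most widely shared beta chain, was at 193 and 201 CPM (928 and 349 UMIs; ratio 1.04, 0.92 to 1.18). Itga9, which pairs only with β1 and binds tenascin-C and osteopontin, was at 184 and 158 CPM (885 and 274 UMIs; ratio 0.86, 0.75 to 0.98). Itga4, an alpha chain of the VCAM-1 and fibronectin receptor VLA-4 that circulating leukocytes carry, had 40 and 10 UMIs (8.33 and 5.77 CPM; ratio 0.69, 0.31 to 1.41) in 27 and 6 cells. None of these 33 cells carried 3 markers of monocytes, T cells or other leukocytes. Outside the 10 genes, the fibronectin receptor chain Itga5 was the most abundant, at 90.1 and 116 CPM (433 and 202 UMIs; ratio 1.29, 1.09 to 1.53), above Itgb3 in both libraries.

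To place the genes in cell states, the cells were clustered with all 27 integrin genes left out, so that no integrin shaped the groups. This gave 9 clusters, numbered by size and not named, of 351 down to 42 cells. They differed in depth and in ribosomal share, from 768 UMIs in the median cell of cluster 5 to 8392 in cluster 6, and from 1.22% ribosomal protein mRNA in cluster 8 to 19.8% in cluster 9. Clusters 3 and 8 were led by genes that include Fos and Hspa1a or Bag3, known as genes of early activation and heat shock, cluster 5 by Cxcl10, an interferon-induced chemokine, cluster 6 by Mt2, Cxcl2 and Mir155hg, and cluster 9 by Apoe. Expression of the clusters is a description of the same cells that were clustered, and each level below sums both libraries unless stated.

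Itgb3 was highest in cluster 4, at 65.2 CPM (51.2 to 81.9), and lowest in cluster 6, at 16.0 CPM (10.1 to 24.3). The range was 4.07-fold (2.50 to 6.88), and its interval does not allow for the choice of the highest and lowest clusters. Between clusters 4 and 6 came clusters 8, 1 and 7 at 48.9, 47.9 and 47.2 CPM, cluster 3 at 29.6, cluster 2 at 23.4, cluster 9 at 21.4 and cluster 5 at 19.0. Neighbours in this order overlapped in their intervals at every step. Further apart in the order, the interval of cluster 4 lay above those of clusters 3, 2, 9, 5 and 6, and that of cluster 6 lay below those of clusters 8, 1 and 7. Each library gave cluster 4 the highest level (62.6 CPM in the control, 75.0 in the 4E-BP1-cKO library) and cluster 6 the lowest of the 8 clusters in which both libraries had 20 or more cells (15.8 and 16.7 CPM). Within those 8 clusters Itgb3 was higher in the 4E-BP1-cKO library in 5 and lower in 3, on counts of 2 to 18 UMIs per cluster in the 4E-BP1-cKO library. The widest gap was in cluster 1, at 54.2 CPM in the control and 19.6 in the 4E-BP1-cKO library. It rests on 37 and 3 UMIs, with a ratio interval of 0.07 to 1.14.

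**Figure D3:**
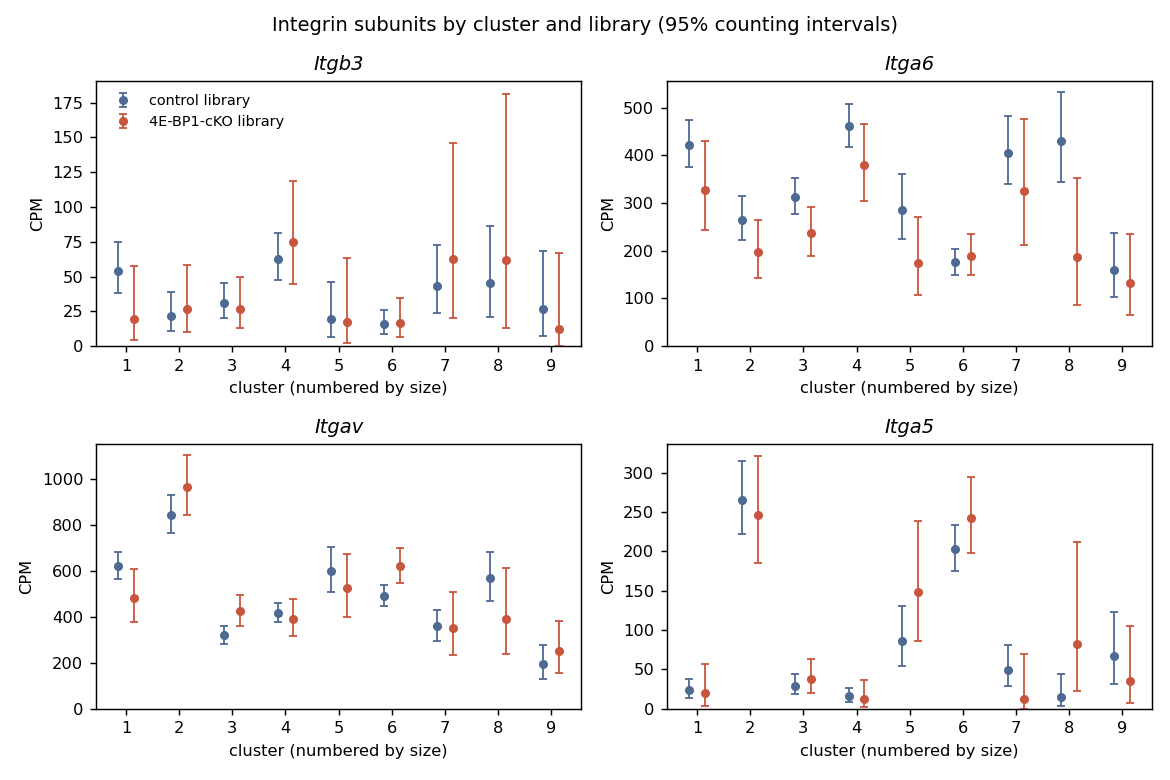
Level of Itgb3, Itga6, Itgav and Itga5 in each of the 9 clusters, in CPM, for the control (blue) and 4E-BP1-cKO (red) library; bars are 95% Poisson intervals. Itgb3 is highest in cluster 4 in both libraries, Itga5 stands out in clusters 2 and 6, and Itga6 is lower in the 4E-BP1-cKO library in 7 of the 8 clusters where both libraries had 20 or more cells.

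Clusters 4 and 6 were both deeply counted, with medians of 5992 and 8392 UMIs, and were set side by side after their values had been seen. Itgb3 in cluster 6 was 0.25 of its level in cluster 4 (0.13 to 0.45) among control cells and 0.22 (0.08 to 0.56) among 4E-BP1-cKO cells. Itga6 was also lower in cluster 6, at 0.38 (0.32 to 0.46) and 0.50 (0.36 to 0.68), as was Itga9 at 0.57 (0.45 to 0.72) and 0.28 (0.17 to 0.46). Itgb5 followed at 0.59 (0.52 to 0.66) and 0.67 (0.55 to 0.81). Itgam was at 0.74 (0.65 to 0.84) and 0.79 (0.63 to 0.995), and Itgb1 had ratios of 0.99 and 0.96. Itgav was higher in cluster 6, at 1.17 (1.02 to 1.35) and 1.59 (1.25 to 2.03), and Itgb2 was at 1.67 (1.30 to 2.17) and 1.07 (0.69 to 1.69). Of the 8 of the 10 genes that could be compared, 3 (Itgb3, Itga6 and Itga9) were lower by more than 1.5-fold in both libraries and 0 higher, against 19.5% and 12.1% of 6320 genes. Clusters 4 and 6 were the highest and lowest for Itgb3, and cluster 4 was the highest for Itga6. The calls of Itgb3 and Itga6 thus follow in part from the choice of the pair, so the count cannot be weighed against these shares. Cluster 6 also had more ribosomal mRNA (10.2% against 4.76%).

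Clusters 1 and 2, likewise paired after their values had been seen, were matched in depth (medians of 2157 and 2334 UMIs) and in ribosomal share (1.23% and 1.27%). Cluster 2, where the homeostatic gene P2ry12 stood at 361 CPM against 893 in cluster 1 and Il10 at 290 against 32.3, was compared gene by gene. Itgav was higher in cluster 2, at 1.36 times its level in cluster 1 (1.19 to 1.56) among control cells and 2.0 times (1.53 to 2.64) among 4E-BP1-cKO cells. Itgb2 was at 1.79 times (1.27 to 2.53) and 1.37 times (0.71 to 2.74). Itga6 was lower, at 0.63 (0.51 to 0.77) and 0.60 (0.39 to 0.92), and so was Itgb5, at 0.56 (0.48 to 0.65) and 0.76 (0.59 to 0.99). Itgam was at 0.75 (0.63 to 0.91) and 0.74 (0.54 to 1.02). Itgb3 was at 0.40 (0.18 to 0.80) in the control, while in the 4E-BP1-cKO library, with 3 UMIs in cluster 1 and 6 in cluster 2, the ratio was 1.37 (0.29 to 8.47). Here 1 of 8 of the genes (Itga6) was lower by more than 1.5-fold in both libraries and 0 higher, against 13.3% and 11.6% of 4618 genes.

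Among the integrin genes with at least 50 UMIs, the fibronectin receptor chain Itga5 differed most within both pairs of clusters. Cluster 2 was its highest and cluster 4 its lowest, so the ratios below follow in part from the choice of the pairs. Their intervals do not allow for that choice. It stood at 260 CPM (224 to 299) in cluster 2 and 215 (191 to 241) in cluster 6, and at 15.0 CPM (8.73 to 24.0) in cluster 4 and 22.8 (13.7 to 35.5) in cluster 1. The ratio of cluster 2 over cluster 1 was 11.3 (6.72 to 20.4) in the control and 12.6 (4.08 to 62.8) in the 4E-BP1-cKO library, and that of cluster 6 over cluster 4 was 13 (7.54 to 24.1) and 19.4 (6.46 to 95.8). Over both libraries, clusters 2 and 6, with much Itga5, held 23.4 and 16.0 CPM of Itgb3, and clusters 1 and 4 held 47.9 and 65.2. In the 4E-BP1-cKO library alone, cluster 2 held 26.9 CPM of Itgb3 and cluster 1 held 19.6, on 6 and 3 UMIs. Cluster 3 held 32.0 CPM of Itga5 and 29.6 of Itgb3. Itga5 made up 8.93% of integrin UMIs in cluster 2 and 0.50% in cluster 4.

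**Figure D4:**
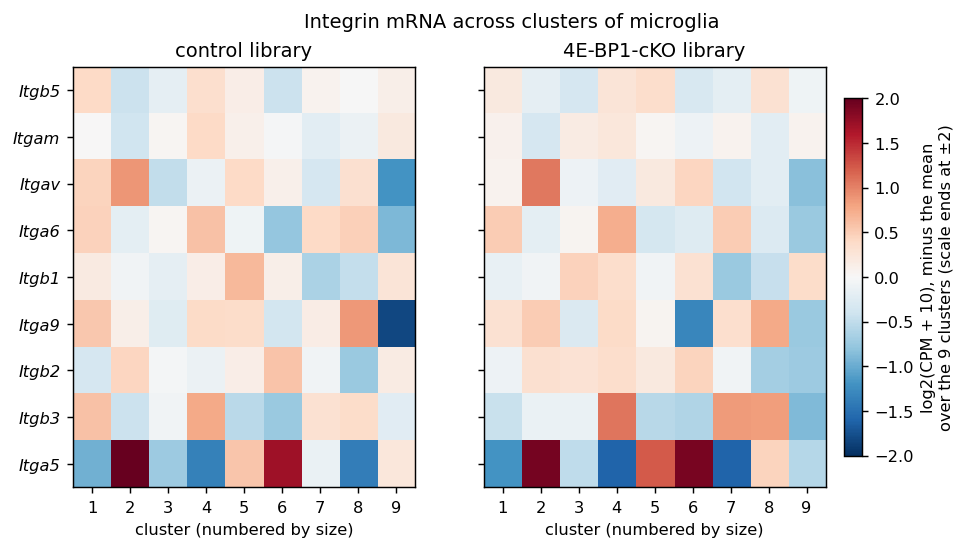
Levels of 8 of the integrin genes and Itga5 across the 9 clusters in each library, as log2 of CPM plus 10 minus the gene's mean over the clusters; red is above and blue below that mean, and the colour scale ends at 2 on either side. The rows of Itga5, Itgav, Itga6, Itga9 and Itgb3 vary between clusters in both libraries, and the row of Itgam varies less than these.

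The remaining genes had narrower or different orders. Itgam ran from 621 CPM (576 to 669) in cluster 4 to 367 CPM (324 to 414) in cluster 2, a 1.69-fold range. All neighbours in its order overlapped, but the intervals of the highest and lowest clusters lay apart. Itgb5 ran from 880 CPM in cluster 1 to 519 in cluster 6, also within 1.70-fold. Itgb2 was highest in cluster 6 (170 CPM) and lowest in cluster 8 (65.1 CPM), and Itgb1 highest in cluster 5 (257 CPM) and lowest in cluster 7 (114 CPM). The libraries differed in this: in cluster 5 Itgb1 stood at 298 CPM in the control and 166 in the 4E-BP1-cKO library (ratio interval 0.32 to 0.93). In cluster 3, the highest for Itgb1 in the 4E-BP1-cKO library, it stood at 164 and 245 CPM (1.13 to 1.95). Cluster 5 also held the most mRNA of endothelial markers, 561 CPM against 20.4 to 79.5 elsewhere, and of oligodendrocyte markers, 441 CPM against 56.3 to 129 elsewhere; their part in the level of Itgb1 was not tested. Itga9 was highest in cluster 8, at 309 CPM, where Bag3 was among the leading genes, and had a 5.16-fold range over the clusters. Between the libraries, Itga9 was lower in the 4E-BP1-cKO library in 6 of the 8 clusters compared and higher in 2. Those 2 were cluster 2 (182 and 242 CPM, control first) and cluster 7 (186 and 213 CPM). Only in cluster 6, at 127 and 61.9 CPM, did the counting interval of the ratio leave out 1 (0.31 to 0.75). Cluster 9, with the most Apoe, had the least Itgav (214 CPM), Itga6 (150 CPM) and Itga9 (60.0 CPM), on 42 cells.

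**Figure D5:**
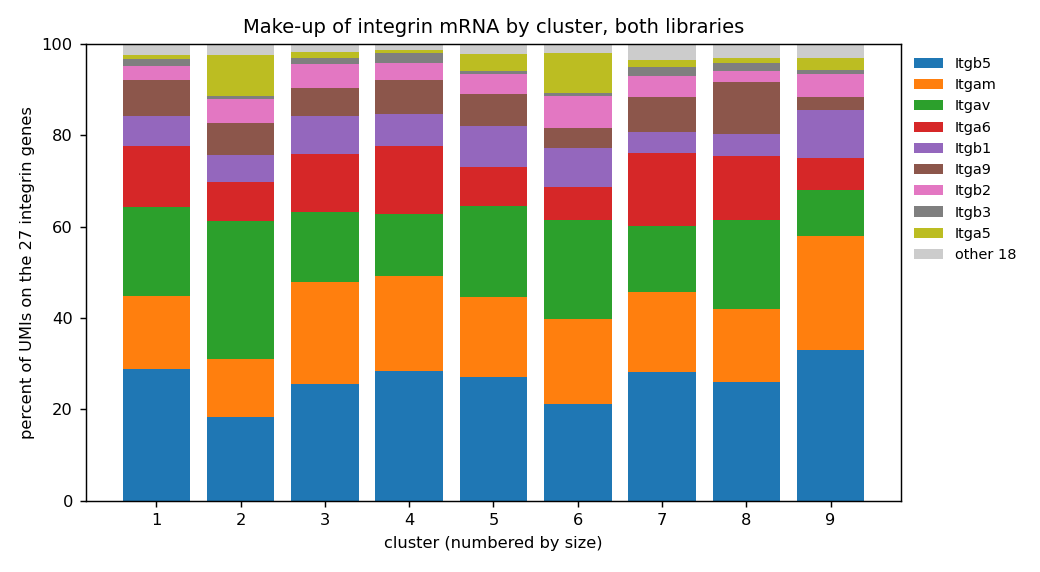
Share of each integrin gene in the UMIs of all 27 integrin genes, by cluster, over both libraries; each bar adds up to all integrin UMIs of that cluster. Itgav makes up 30.4% in cluster 2 and 10.0% in cluster 9, Itgb5 33.1% in cluster 9 and 18.3% in cluster 2, and the Itga5 segment is widest in clusters 2 and 6.

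The lower Itga6 in the 4E-BP1-cKO library was seen across states. It was lower in 7 of those 8 clusters, least in cluster 4 (462 against 379 CPM) and most in cluster 8 (431 against 186 CPM), and was 175 against 188 CPM in cluster 6. The counting interval left out 1 in clusters 3 and 8. Among 4887 genes with at least 200 UMIs, 8.21% were lower in at least 7 of these 8 clusters and 5.91% higher, and of 8 of the integrin genes with that many UMIs, 1 was lower in at least 7 and 0 higher. The libraries also differed in ribosomal share, so the cells were cut into 4 groups of equal size by that share. Itga6 was then at 351 and 214 CPM in the group with the lowest share, 420 and 258 in the next, 393 and 299 in the third and 218 and 206 in the highest, control before 4E-BP1-cKO. Itgb3 was at 47.5 and 30.6, 36.9 and 18.9, 44.6 and 48.6, and 24.0 and 22.8 CPM in the same groups.

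Alpha and beta chains were then looked at in the same cells. With all UMIs counted, cells with an Itgb2 UMI held Itgam more often than cells without, 81.1% (76.8 to 84.9) against 59.0% (55.4 to 62.5) in the control library. After thinning to 872 UMIs these shares were 28.9% (20.8 to 38.2) and 31.4% (28.4 to 34.4). Itgav was found in 68.9% of control cells with Itgb3 and 55.4% of those without, and after thinning in 23.5% (10.7 to 41.2) and 30.3% (27.5 to 33.2). In the 4E-BP1-cKO library the unthinned shares for Itgav were 82.2% and 51.0%, and 1 of the 7 Itgb3 cells left after thinning held Itgav. The intervals thus overlapped after thinning for both pairs in the control library.

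Among the genes whose levels most resembled Itgb3 over 17 points (the 9 control clusters and 8 4E-BP1-cKO clusters, which share their library and depth) were Slc38a9, an amino acid sensor of the lysosome (Pearson's r = 0.82), Washc4 (0.81), Adipor2 (0.81) and Erap1 (0.81). Of the integrins Itga6 came closest, with r = 0.65 at rank 117 of 4886 genes, and Itga5 was furthest, with r = -0.70 at rank 4844. Itgam was most like P2ry12 (0.93), Ostf1 (0.92), Scoc (0.92), Siglech (0.88) and Serinc3 (0.88), of which P2ry12 and Siglech are markers of homeostatic microglia. Itgam and its partner Itgb2 had r = 0.02. These coefficients describe the clusters and carry no test.

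Genes that act around the receptors were read against the same shares of all genes, 3.0% higher and 7.72% lower by more than 1.5-fold. Of 25 activators and adaptors, 20 had at least 50 UMIs, of which 1 was higher and 0 lower by more than 1.5-fold, with a median log2 ratio of 0.01. The one was Itgb1bp1, a β1 tail binding protein, at 7.29 and 11.5 CPM on 35 and 20 UMIs (log2 ratio 0.60, ratio interval 0.87 to 2.82). The most abundant were the tetraspanins Cd9 (855 and 1016 CPM, log2 ratio 0.25) and Cd81 (852 and 939 CPM, 0.14) and the small GTPase Rap1b (636 and 702 CPM, 0.14). Of 23 kinases and signalling genes, 21 had enough UMIs, of which 1 was lower and 0 higher (median -0.06): Crkl, an adaptor, at 33.9 and 17.9 CPM on 163 and 31 UMIs (log2 ratio -0.89, ratio interval 0.35 to 0.78). The Src-family kinase Lyn, the most abundant of them, was at 1338 and 1132 CPM (log2 ratio -0.24), Rhoa at 391 and 400 CPM, and Syk at 224 and 234 CPM.

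Of 26 genes of integrin ligands, 11 had at least 50 UMIs, of which 3 were higher and 1 lower by more than 1.5-fold (3.0% and 7.72% of all genes), with a median log2 ratio of 0.09. Spp1, encoding osteopontin, a ligand of αv and α9 integrins, was at 28.1 CPM in the control and 58.8 CPM in the 4E-BP1-cKO library (135 and 102 UMIs; log2 ratio 1.04, ratio interval 1.60 to 2.73), in 4.53% and 8.31% of cells. Vcam1, the ligand of α4β1, was at 53.1 and 86.5 CPM (255 and 150 UMIs; log2 ratio 0.69, ratio interval 1.32 to 2.0). Mfge8, the bridging protein between dying cells and αvβ3 or αvβ5, was at 7.29 and 12.7 CPM (35 and 22 UMIs; log2 ratio 0.72, ratio interval 0.97 to 3.05). The laminin chain Lamc1 was at 15.6 and 7.5 CPM (75 and 13 UMIs; log2 ratio -0.97, ratio interval 0.24 to 0.87). The most abundant ligand genes, Icam1, F11r and Tgfb1, had log2 ratios of 0.15, -0.02 and 0.09.

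The study grouped Itgb3 with the phagocytosis genes Axl, Cd44 and Cdc42. Their log2 ratios were 0.33 for Axl, a receptor for phosphatidylserine bridging proteins (42.5 and 53.6 CPM; ratio interval 0.98 to 1.62), -0.37 for the hyaluronan receptor Cd44 (48.1 and 36.9 CPM; 0.57 to 1.02) and 0.15 for the GTPase Cdc42 (473 and 527 CPM; 1.03 to 1.20). In both libraries together, the log2 ratio in cluster 6 over cluster 4, the lowest and the highest for Itgb3, was 3.66 for Cd44 and 2.03 for Axl against -1.96 for Itgb3, and in cluster 2 over cluster 1 it was 3.04, 0.60 and -1.01, where the Itgb3 value was 0.44 in the 4E-BP1-cKO library alone. Cdc42 differed by 0.30 and 0.25.

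On the mm10 assembly, with coordinates from the RefSeq annotation of that build, Itgb3 lies on chromosome 11 from 104608000 to 104670476 and Itgb5 on chromosome 16 from 33829665 to 33949338. Chromosome 2 holds Itga6 (71786886 to 71858427), Itga4 (79255426 to 79333114) and Itgav (83722303 to 83806917). The β2 partners Itgal (127296139 to 127335137) and Itgam (128062640 to 128118491) lie on chromosome 7, near Itgax and Itgad. Itgb1 is on chromosome 8 from 128685654 to 128733579, Itga9 on chromosome 9 from 118606709 to 118901003 and Itgb2 on chromosome 10 from 77530329 to 77565708.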

How the data were processed

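Per the file headers and the study's methods, the authors made the deposited counts of UMIs per gene and cell with Cell Ranger 8.0.1 on mm10; the annotation release and whether intronic reads were counted are not given in the sources used here. Cells with more than 300 genes and under 5% mitochondrial UMIs were kept. The study also removed doublets with scDblFinder, which was not run here, and it reports fewer cells of each genotype than were kept here. Doublets were kept, and removal of those that Scrublet (scanpy 1.11.5) called was an alternative. Scrublet called 4 and 11 against 10.5 and 1.58 expected, so this alternative does not stand in for the study's step. Counts were summed per library and given as CPM, per 1000000 UMIs (pseudocount 1 for log2). The exact Poisson, binomial and conditional ratio intervals cover counting error only. Only the ratio interval was tried on simulated data, drawn as independent Poisson counts, for which it holds by construction. Clumping of UMIs in single cells was not simulated. Cells were clustered with Seurat 5.3.0 (SCTransform, RPCA integration, 20 principal components, resolution 1.4) without the 27 integrin genes; a cluster entered comparisons of the libraries with at least 20 cells of each. Clusters were compared with each other for the genes with enough UMIs, and likeness used genes with at least 200 UMIs and a pseudocount of 10 CPM. The genes named were the 10, other integrin chains with at least 50 UMIs and Itgax, and, of each list, the 3 genes with most UMIs and those past 1.5-fold. Leading genes of clusters, genes most like Itgb3 or Itgam, and markers of the cell type lists were also named, with Eif4ebp1 as the deleted gene. Itga2b, Itgb6, Itgb8, Itga3, Itgb2l and Il10 were chosen after their values were seen, as was the marker P2ry12 in the cluster comparison. The genes and lists were chosen with earlier results of these data known. Free RNA in the droplets could not be measured, as no cell class that should lack these genes was present in number. Alternatives covered the cell filters, doublets, edgeR 4.0.16 TMM factors, the total, pseudocount, depth and clustering. One of the genes most like Itgb3 over the clusters is not reported here.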

Additional observations from a re-analysis of the deposited data

How the results depend on the processing

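No paired analysis was possible because each genotype has 1 library, and for the same reason no library could be left out. Of 523 recomputed values, 414 stayed within the counting interval or within 1.5 times the count first given, 108 moved and 1 reversed. Only ratios between clusters could be counted as reversed. A change of sign in a ratio between the libraries was counted as moved or as within the interval. Itgav kept its sign under 8 of 12 alternatives, and Itgam, Itgb2, Itgb1, Itgb5 and Itgal also changed sign under some. Some values that moved are shares of cells with a UMI, which thinning lowers by discarding UMIs in the cells it keeps. The cause of the other changes was not tested. The log2 ratio of Itgb3 (4E-BP1-cKO over control) was negative under all 12 alternatives, from -0.88 to -0.02, and that of Itga6 from -0.65 to -0.41. These alternatives recount largely the same UMIs, so a shared sign is not independent support for a lower level. Thinning each cell to 872 UMIs by 1 random draw, which left Itgb3 UMIs in 34 and 7 cells, gave -0.88 for Itgb3, 3 genes lower past 1.5-fold (Itgb3, Itga6 and Itga4) instead of 0, 0.829% of integrin UMIs for Itgb3 in the 4E-BP1-cKO library, 3.21% and 1.87% of cells with Itgb3, log2 ratios of -2.26 for cluster 2 over cluster 1 and -0.94 for cluster 6 over cluster 4, an 8.54-fold range over clusters, and a higher level in the 4E-BP1-cKO library in 28.6% of clusters (62.5% without thinning). Because these rest on few UMIs, expected counts after thinning were added after the draw had been seen: they gave -0.50 for Itgb3, 1 gene lower past 1.5-fold (Itga6), a 7.62-fold range and 28.6% of clusters. Each 28.6% is 2 of the 7 clusters that still had enough cells after thinning, while 62.5% is 5 of 8, so the sets of clusters differ. The mean of per-cell CPM gave 1 gene lower past 1.5-fold (Itga6) and -0.12 for all integrin genes together, against -0.05. Leaving out the cell with most UMIs of each gene, added after the data were seen, gave 1 (Itga4). A resolution of 0.2 and 4 groups of equal size by ribosomal share each put Itgb3 higher in the 4E-BP1-cKO library in 25% of groups, and the 4 groups gave a 1.93-fold range. In the 4E-BP1-cKO library alone, Itgb3 in cluster 2 over cluster 1 reversed to 0.44. The mean over clusters moved the median log2 ratio of all genes from -0.04 to -0.20; against that median Itgb3 (-0.02) lay above and Itga6 (-0.45) below.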

Other observations

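Other values outside the comparisons above concern single cells. In the control library 10 of the 11 Itgb6 UMIs and 54 of the 1580 Itga6 UMIs came from 1 cell each. Itga3 and Itgb2l had no UMI in either library, which allows up to 3 counts, or 0.625 CPM in the control and 1.73 CPM in the 4E-BP1-cKO library.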
